A study of Mus musculus with 2 samples.

Results

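The cyclin-dependent kinase (CDK) inhibitors of the CIP/KIP and INK4 families were examined in leukemic stem cells (LSCs) from mice with BCR-ABL-driven chronic myeloid leukemia (CML). The genes were picked by symbol, 3 CIP/KIP genes (Cdkn1a, Cdkn1b and Cdkn1c) and 4 INK4 genes (Cdkn2a, Cdkn2b, Cdkn2c and Cdkn2d), which makes 7 of the 23284 gene symbols that the files list. All 7 were at 0.1 FPKM or more in both libraries and averaged 1 FPKM or more over the 2 libraries, so none was lost to a filter on low values.

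There was 1 library of WT LSCs and 1 library of STAP-1 KO LSCs. STAP-1 KO mice carry a targeted disruption of the gene for the adapter protein STAP-1 in all cells, on a C57BL/6J background. WT mice are described as C57BL/6. In both groups donor LSK cells (negative for lineage markers, positive for Sca-1 and c-Kit) were infected with a retrovirus for human BCR-ABL and GFP, and were given, with C57BL/6SJL marrow, to lethally irradiated C57BL/6SJL mice. Mice were 8 to 14 weeks old. GFP+ CD45.2+ LSK cells were sorted 11 days after the transplantation, without any drug. The number of mice behind each library is not given in the sources used here. With 1 library per genotype there was no replicate check, no test was possible and no p-value is given. The intervals below cover the counting of reads alone.

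Cells advance through the cell cycle when cyclins activate CDKs. INK4 proteins bind CDK4 and CDK6 and keep D-type cyclins from activating them, whereas CIP/KIP proteins bind cyclin-CDK complexes more broadly, those of CDK2 above all. In the bone marrow, inhibitors of both families are known for holding hematopoietic stem cells in quiescence. Of them, p21 (Cdkn1a), p16 and p19Arf (Cdkn2a) and p15 (Cdkn2b) are also induced by stress, p53, oncogenes or TGF-β. The others are p57 (Cdkn1c), p27 (Cdkn1b), p18 (Cdkn2c) and the INK4 protein p19 (Cdkn2d).

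FPKM values are read densities scaled to exon length and library size, so levels may be set side by side between genes. The 2 libraries gave steps between low values from which effective depths of 7500000 reads (WT) and 10470000 reads (STAP-1 KO) were estimated. The labelled genotype was checked on Stap1, which was at 62.0 FPKM in WT and 0.309 FPKM in STAP-1 KO LSCs. Of the sorting markers, Kit was at 468 and 30.1 FPKM, Ly6a (Sca-1) at 285 and 106 FPKM and Ptprc (CD45) at 107 and 38.2 FPKM, so that all were detected in both. All 12 mast cell and basophil markers examined were at least 2-fold lower in STAP-1 KO LSCs, and they summed to 58788 FPKM in WT and 6927 FPKM in STAP-1 KO, which is 9.06% and 1.15% of all FPKM. All 5 primary granule markers found were at least 2-fold higher, with sums of 564 and 4623 FPKM. Of the 5 eosinophil markers 3 were at least 2-fold higher and 1 at least 2-fold lower, with Prg2 at 2.12 and 61.7 FPKM and Siglec5 at 27.9 and 11.4 FPKM, and of the monocyte markers Ly6c2 was at 20.5 and 98.0 FPKM but Emr1 at 30.7 and 4.34 FPKM. Of the 10 erythroid markers 3 were at least 2-fold lower and 1 at least 2-fold higher, with sums of 3808 and 2860 FPKM, and of the 6 megakaryocyte markers 2 were lower and 1 higher, with sums of 214 and 136 FPKM. Of the B cell markers Cd79b was at 3.10 and 17.8 FPKM, and Ebf1 and Pax5 were listed at 0 FPKM in both. Fewer cells of a type and less RNA per cell cannot be told apart in bulk libraries, and the part of these cells in the differences below was not tested.

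Of the 7 inhibitors, 4 were at least 2-fold lower in STAP-1 KO LSCs (Cdkn1a, Cdkn1b, Cdkn2a and Cdkn2b) and 0 were at least 2-fold higher. Over all 12507 genes with 0.1 FPKM or more in both libraries, 22.9% were at least 2-fold lower and 12.3% at least 2-fold higher. These shares are of values as deposited, and none was worked out for the corrected values described below. Both families held genes on each side of the cut-off, 2 of 3 CIP/KIP genes and 2 of 4 INK4 genes being lower. The log2 ratio, log2((STAP-1 KO + 0.1)/(WT + 0.1)), had a median of -1.0 over the 7 genes and of -0.04 over the 10974 genes that averaged 1 FPKM or more (expressed genes below). Genes with short transcripts were in general higher in STAP-1 KO, so a corrected log2 ratio, less the medians of genes of like transcript length and GC content, is also given for the named genes whose call or direction it changes.

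**Figure D1:**
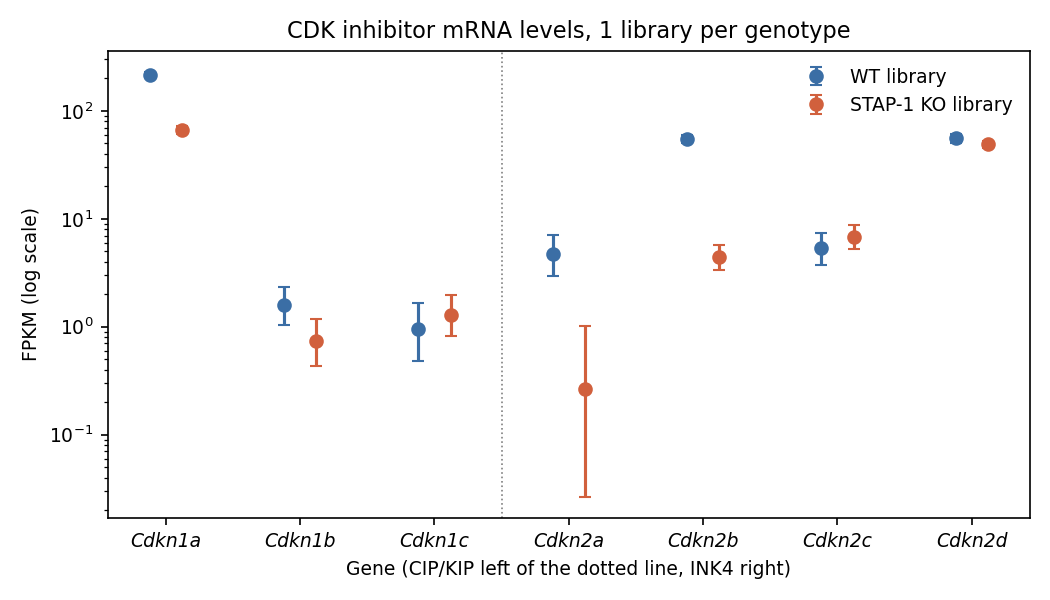
FPKM (log axis) of the 7 CDK inhibitor genes in the WT library (blue) and the STAP-1 KO library (orange). Points are the values of 1 library each and bars the 95% Poisson intervals of the estimated reads. Cdkn1a, Cdkn2a and Cdkn2b lie apart between the libraries, Cdkn1b overlaps in its bars, and Cdkn1c, Cdkn2c and Cdkn2d lie close together.

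Cdkn1a encodes p21, the inhibitor through which p53 arrests the cycle. The gene lies at chr17:29090976-29100727 on the plus strand of GRCm38 and has 5 annotated transcripts. It was the most highly expressed inhibitor in both libraries, with 217 FPKM in WT and 66.4 FPKM in STAP-1 KO LSCs. The level in STAP-1 KO was 3.26-fold lower (95% counting interval from 2.94 to 3.63), and the intervals of the 2 levels did not overlap. Depending on which RefSeq transcript the reads are assigned to, the values stand for about 1160 to 2771 reads in WT and 496 to 1185 reads in STAP-1 KO. In WT the gene stood above 97.1% of detected genes, and in STAP-1 KO above 86.6%. Its log2 ratio of -1.70 was at percentile 11.2 of expressed genes, 237 of which lay within 0.1 of it.

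RefSeq lists 2 start sites for Cdkn1a, and the 250 bases before each are shown because a p53 motif pair was found in the distal window. The capitals in the distal window mark a pair of p53 binding motifs with at most 1 mismatch in 20 bases, and those in the proximal window mark GC boxes (GGGCGG on either strand), to which Sp1 and KLF factors bind.
Cdkn1a distal, chr17:29090729-29090978, plus strand: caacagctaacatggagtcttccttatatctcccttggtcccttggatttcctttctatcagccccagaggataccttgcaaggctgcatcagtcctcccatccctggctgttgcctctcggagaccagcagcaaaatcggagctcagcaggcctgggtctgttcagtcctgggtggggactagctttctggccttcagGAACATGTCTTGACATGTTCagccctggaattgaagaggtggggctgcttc
Cdkn1a proximal, chr17:29093519-29093768, plus strand: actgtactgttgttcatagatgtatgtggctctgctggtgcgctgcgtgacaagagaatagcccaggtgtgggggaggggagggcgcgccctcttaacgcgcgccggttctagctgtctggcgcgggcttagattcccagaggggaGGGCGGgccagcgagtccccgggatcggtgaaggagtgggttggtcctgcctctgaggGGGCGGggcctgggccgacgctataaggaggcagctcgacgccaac
The p53 match begins 51 bases before the distal start. Such a match was found in 25 of 32851 windows of the same length in RefSeq (0.0761%) and in no other window of a CDK inhibitor gene. A GC box was found in 32.7% of all windows. The FPKM value pools both starts, so the data do not tell which of them was used. An opposite-strand transcript without a value here shares 273 exon bases with Cdkn1a, and since the library kit does not mark strand, reads of the pair cannot be told apart.

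The gene for p53 itself was higher in STAP-1 KO LSCs, with Trp53 at 107 and 191 FPKM, although by less than 2-fold. Among 20 p53 targets other than Cdkn1a, 9 were at least 2-fold lower and 1 at least 2-fold higher. The shares of all genes were 22.9% and 12.3%, and the median log2 ratio of the targets was -0.77. Phlda3, which holds back AKT, was at 23.7 FPKM in WT and 7.59 FPKM in STAP-1 KO, the antiproliferative gene Trp53inp1 at 15.1 and 2.23 FPKM, and Zmat3, an RNA-binding protein, at 2.35 and 0.303 FPKM. Bax, the death effector, was at 164 and 145 FPKM. Cdkn1a lay on the same side as 16 of these targets, and as 5671 of the 10974 expressed genes, whereas Trp53 mRNA lay on the opposite side.

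Of the genes beside Cdkn1a, Srsf3, which lies 47603 bases before it, was at 118 FPKM in WT and 263 FPKM in STAP-1 KO, and Rab44, which lies 13418 bases after it, was at 209 and 43.3 FPKM. Egr1 and Klf6, zinc-finger factors that can induce Cdkn1a, were at 575 and 121 FPKM and at 397 and 106 FPKM. Myc, which represses Cdkn1a and Cdkn2b, was at 59.3 and 169 FPKM.

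Cdkn1b (p27, chr6:134920401-134925513, plus strand) was low in both libraries. It was at 1.58 FPKM in WT, which is about 25.9 reads, and at 0.739 FPKM in STAP-1 KO, about 16.9 reads. This 2.14-fold lower level had a counting interval from 1.11 to 4.20, which spans the cut-off, and the intervals of the 2 levels overlapped. It stood above only 26.5% of detected genes in WT and 23.3% in STAP-1 KO. FOXO factors induce Cdkn1b. Foxo1 was at 5.37 and 1.43 FPKM, Foxo3 at 1.44 and 0.677 FPKM and Foxo4 at 0.587 and 0.0970 FPKM, all lower in STAP-1 KO, the last with a value below the floor of 0.1 FPKM. The corrected log2 ratios of Foxo1 (-0.85) and Foxo3 (-0.70) were short of 2-fold. The p27 protein is marked for degradation by SKP2 with its helper CKS1. Skp2 was at 8.82 and 18.8 FPKM and Cks1b at 224 and 591 FPKM, both at least 2-fold higher in STAP-1 KO. Over the 16 genes listed for the turnover of CDK inhibitors, 5 were at least 2-fold higher, against 12.3% of all genes. At least 2-fold lower were 3, a share near the 22.9% of all genes. The lower ones were the ubiquitin ligase genes Fbxw7 (21.7 and 3.69 FPKM) and Rnf123 (26.9 and 11.2 FPKM) and Ddb1 (138 and 61.8 FPKM). Once corrected, 1 gene of the list was past 2-fold in each direction, Skp2 and Fbxw7, and the log2 ratios of Cks1b (0.85), Rnf123 (-0.34) and Ddb1 (-0.59) were not. Protein levels were not analysed here.

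Cdkn1c (p57, chr7:143458339-143461050, minus strand) is an imprinted gene expressed from the maternal copy. It was at 0.944 FPKM in WT and 1.30 FPKM in STAP-1 KO LSCs, about 11.9 and 22.8 reads. The ratio of 1.37 had a counting interval from 0.653 to 3.04, so that no difference was detectable at this depth and one of 2-fold in the higher direction lay inside the interval. Within the same imprinted domain, the silencing RNA Kcnq1ot1 was at 0.601 and 0.612 FPKM and Slc22a18 at 0.823 and 0.958 FPKM. Kcnq1, whose body holds that RNA, was at 2.55 and 0.0339 FPKM, and Phlda2 at 6.81 and 3.07 FPKM. An antisense gene without a value here shares 625 exon bases with Cdkn1c, with the same limit as for Cdkn1a.

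The CIP/KIP sum was almost all Cdkn1a. The 3 genes summed to 219 FPKM in WT and 68.4 FPKM in STAP-1 KO, a sum 3.20-fold lower, and Cdkn1a made up 98.8% and 97.0% of it. Cdkn1b and Cdkn1c were at 1.58 FPKM or less in both libraries. Their order differed between the libraries, Cdkn1b having the higher value in WT and Cdkn1c in STAP-1 KO, but their intervals overlapped within each library.

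**Figure D2:**
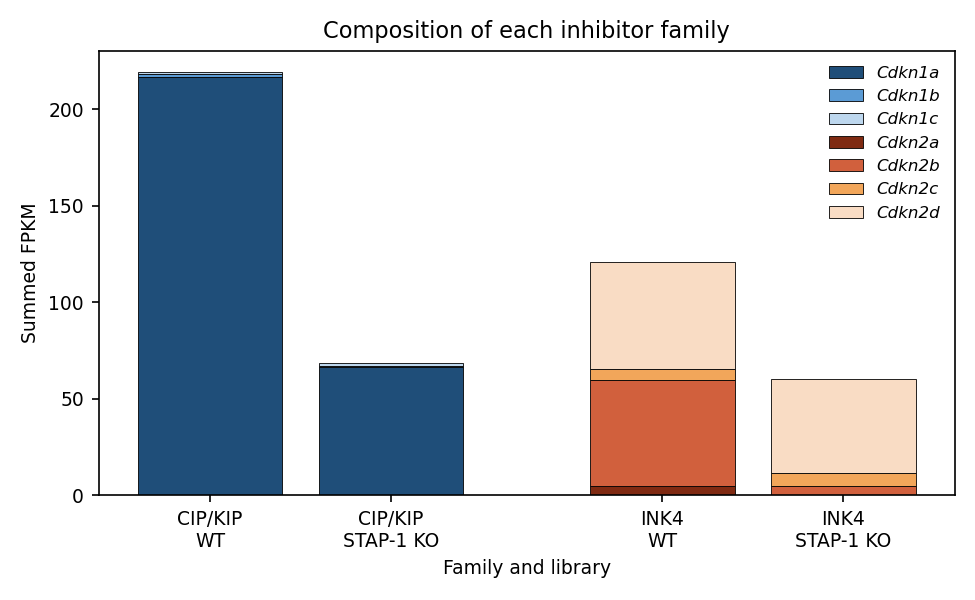
Summed FPKM (bars start at 0) of the CIP/KIP genes (left pair) and the INK4 genes (right pair) in the WT and STAP-1 KO libraries, stacked by gene. Cdkn1a fills the CIP/KIP bars in both libraries, whereas the INK4 bar of WT is shared by Cdkn2b and Cdkn2d and that of STAP-1 KO is mostly Cdkn2d.

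Cdkn2a and Cdkn2b lie 11646 bases apart on the minus strand of chromosome 4 and were the inhibitors with the lowest ratios. Cdkn2b (chr4:89306299-89311039), whose product p15 acts downstream of TGF-β, was at 55.2 FPKM in WT, about 489 reads, and at 4.43 FPKM in STAP-1 KO, about 54.9 reads. The level in STAP-1 KO was 12.4-fold lower, with a counting interval from 9.40 to 16.8. The log2 ratio of -3.61 was at percentile 1.83 of expressed genes, and 40 of them lay within 0.1 of it. Cdkn2a (chr4:89274471-89294653) was at 4.71 FPKM in WT, about 22.7 to 24.3 reads, and at 0.265 FPKM in STAP-1 KO, about 1.79 to 1.91 reads. The latter is below the 0.445 FPKM that 3 reads of its shorter RefSeq transcript correspond to. The 17.8-fold lower level therefore had a wide counting interval, from 4.12 to 187.

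Cdkn2a encodes p16 (Ink4a) and p19Arf from separate first exons and shared later exons read in different frames. p16 binds CDK4 and CDK6, whereas p19Arf stabilizes p53 by binding MDM2. The deposited value gives 1 level per gene symbol and does not separate them. The windows before both starts, and that before the start of Cdkn2b, are shown because these are the places where the 3 products part. Capitals mark GC boxes.
Cdkn2a, p19Arf start, chr4:89294620-89294869, minus strand: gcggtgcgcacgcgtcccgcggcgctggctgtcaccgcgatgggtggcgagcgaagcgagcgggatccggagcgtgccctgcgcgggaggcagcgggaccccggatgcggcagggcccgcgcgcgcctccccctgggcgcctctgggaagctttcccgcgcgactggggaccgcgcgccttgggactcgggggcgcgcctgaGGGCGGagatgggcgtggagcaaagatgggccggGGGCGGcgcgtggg
Cdkn2a, p16 start, chr4:89282193-89282442, minus strand: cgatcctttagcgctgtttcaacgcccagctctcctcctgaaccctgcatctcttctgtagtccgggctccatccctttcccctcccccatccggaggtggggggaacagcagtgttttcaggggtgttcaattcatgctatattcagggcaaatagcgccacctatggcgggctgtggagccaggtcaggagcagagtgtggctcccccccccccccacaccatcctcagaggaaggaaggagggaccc
Cdkn2b, chr4:89311033-89311282, minus strand: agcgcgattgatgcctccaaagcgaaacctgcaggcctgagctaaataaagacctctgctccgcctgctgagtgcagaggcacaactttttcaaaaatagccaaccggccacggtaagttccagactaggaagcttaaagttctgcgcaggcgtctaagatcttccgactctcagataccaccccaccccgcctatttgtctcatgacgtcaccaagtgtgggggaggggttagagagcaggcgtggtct
The windows differed in base composition. The p19Arf window had 78.4% GC and 40 CpG dinucleotides, the p16 window 60.0% and 7, and the Cdkn2b window 53.6% and 12, against medians of 52.4% and 6 over all windows. A GC box was present 2 times before the p19Arf start and in neither of the other windows. An E2F motif (TTTNGCGC on either strand) was found in the p16 window, 244 bases before the start, and in 1.13% of all windows. None of the 9 windows of CDK inhibitor genes held an E-box (CACGTG), a STAT motif (TTCNNNGAA) or a forkhead motif (GTAAACA), which were found in 6.02%, 7.02% and 3.17% of all windows. The windows come from RefSeq on GRCm38.p6. Of the 7 genes, 6 had a window in the set used here. Cdkn1c had none, although it has RefSeq-linked transcripts.

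Mtap, an enzyme gene of methionine salvage that lies 93390 bases beyond Cdkn2a, was at 75.4 FPKM in WT and 101 FPKM in STAP-1 KO and thus did not share the low ratio of the pair. Dmrta1, on the Cdkn2b side, was listed at 0 and 0.0247 FPKM, which allows no comparison.

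TGF-β signaling induces Cdkn2b through SMAD factors. Tgfbr1 was at 80.8 and 6.60 FPKM, Tgfbr2 at 14 and 3.16 FPKM and Tgfb1 at 177 and 75.6 FPKM, so STAP-1 KO LSCs were at least 2-fold lower in each. Smad2 (15.4 and 12.2 FPKM), Smad3 (2.81 and 3.07 FPKM) and Smad4 (34.1 and 29.8 FPKM) differed by less than 2-fold, and the corrected log2 ratio of Smad2 had the opposite sign (0.54, from -0.34). Polycomb proteins silence Cdkn2a and Cdkn2b. Bmi1 was at 17.3 and 16.6 FPKM, Ezh2 at 38.8 and 77.2 FPKM and Cbx7 at 3.28 and 1.03 FPKM, so that the Polycomb genes did not share a direction. Id2, whose relative Id1 represses Cdkn2a, was at 896 and 94.5 FPKM, and Id1 at 17.3 and 48.1 FPKM. Of the 22 listed inducers of CDK inhibitors, 19 could be compared. Among these, 10 were at least 2-fold lower and 1 at least 2-fold higher (22.9% and 12.3% of all genes), with a median log2 ratio of -0.98. Once corrected, 6 were at least 2-fold lower and the median was -0.28. Of the 22 repressors, 19 could be compared, with a median of 0.09. At least 2-fold lower were 2, a share below that of all genes, and at least 2-fold higher 3, a share near it.

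Cdkn2c and Cdkn2d, which lie at other loci, differed little. Cdkn2c (p18, chr4:109660876-109667189, minus strand) was at 5.35 FPKM in WT and 6.81 FPKM in STAP-1 KO, which corresponds to about 36.0 to 90.8 reads and 64.0 to 161 reads. Its ratio of 1.27 had a counting interval from 0.834 to 1.97, which includes equal levels. Cdkn2d (the INK4 protein p19, chr9:21288410-21291407, minus strand), not to be confused with p19Arf, was at 55.5 and 48.9 FPKM, about 506 and 623 reads. The STAP-1 KO level was 1.13-fold lower, with an interval from 1.01 to 1.28 that lies wholly below the 2-fold cut-off. Their log2 ratios of 0.34 and -0.18 were at percentiles 65.1 and 44.8, and 881 and 816 genes lay within 0.1 of them.

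In WT LSCs Cdkn2b and Cdkn2d were at nearly the same level, a ratio of 0.994, and in STAP-1 KO LSCs the ratio was 0.0906. The INK4 sum was 121 FPKM in WT and 60.4 FPKM in STAP-1 KO, 1.997-fold lower. Cdkn2b made up 45.7% of the sum in WT and 7.34% in STAP-1 KO, and Cdkn2d 46.0% and 81.0%. The share of Cdkn2c was 4.43% and 11.3%, although its own level differed by less than counting error.

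The order of the levels can be read with these intervals. In WT it was Cdkn1a, then Cdkn2d and Cdkn2b, then Cdkn2c and Cdkn2a, then Cdkn1b and Cdkn1c, and the genes joined by "and" had overlapping intervals. In STAP-1 KO it was Cdkn1a, Cdkn2d, then Cdkn2c and Cdkn2b, whose intervals from 5.24 to 8.69 FPKM and from 3.34 to 5.77 FPKM overlapped, then Cdkn1c, Cdkn1b and Cdkn2a, at 1.30 FPKM or less and with overlapping intervals.

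Over 10856 genes, Spearman's rank correlation of log2 ratio and transcript length was -0.40, a description across genes of 1 pair of libraries. The genes closest in length to each inhibitor, in bins of 542 or 543 genes, had median log2 ratios from 0.14 to 0.51. Less the medians of its length bin and GC bin, Cdkn1a had a log2 ratio of -1.84, Cdkn1b -1.38, Cdkn1c 0.53, Cdkn2a -3.90, Cdkn2b -3.79, Cdkn2c 0.58 and Cdkn2d -0.36. Each inhibitor kept its direction, and the same 4 genes were past 2-fold.

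**Figure D3:**
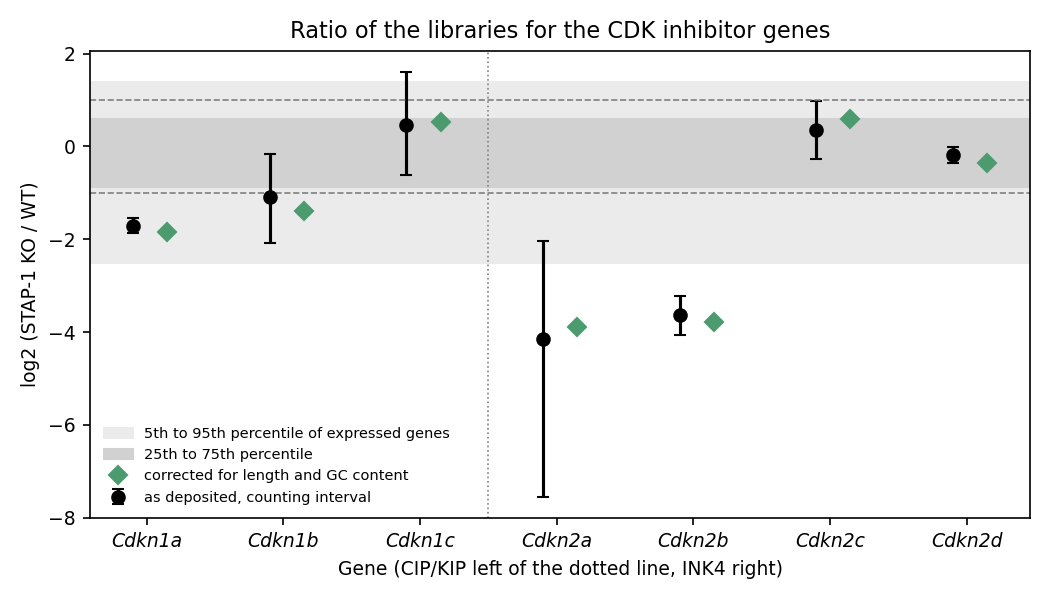
Log2 ratio of STAP-1 KO to WT for the 7 genes without a pseudocount (black, with 95% counting intervals) and corrected for length and GC (green, with the pseudocount of 0.1 FPKM). Grey bands run from percentile 5 to 95 and from 25 to 75 of the 10974 expressed genes, and dashed lines mark 2-fold. Cdkn2a and Cdkn2b lie below both bands, Cdkn1a and Cdkn1b inside the outer band only, and the other 3 inside the inner band.

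Most of the kinases and cyclins that the inhibitors act on had higher values in STAP-1 KO LSCs, but the greater part of these by less than 2-fold. Of the D-type cyclins and their kinases, Cdk4 was at 276 FPKM in WT and 636 FPKM in STAP-1 KO, at least 2-fold higher. Cdk6 (21.3 and 36.6 FPKM), Ccnd3 (162 and 186 FPKM), Ccnd2 (72.5 and 51.6 FPKM) and Ccnd1 (1.38 and 1.01 FPKM) differed by less than 2-fold. The corrected log2 ratio put Cdk6 past 2-fold (1.66, from 0.78) and turned the direction of Ccnd2 (0.40, from -0.49). Among the cyclins of S phase and mitosis and their kinases, Cdk1 (36.5 and 103 FPKM) and Ccnb1 (57.8 and 120 FPKM) were at least 2-fold higher, the latter not once corrected (0.75). Ccna2 (119 and 229 FPKM), Ccnb2 (104 and 205 FPKM), Ccne1 (41.0 and 62.7 FPKM), Ccne2 (23.6 and 38.1 FPKM) and Cdk2 (43.7 and 65.4 FPKM) were higher by less than 2-fold, and Ccna1 was listed at 0 FPKM in both.

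Set against these targets, the inhibitor mRNA took a smaller place in STAP-1 KO LSCs. The INK4 sum was 0.406 of the summed Cdk4 and Cdk6 level in WT and 0.0898 in STAP-1 KO, a quotient 4.52-fold lower. The CIP/KIP sum was 5.02 times the Cdk2 level in WT and 1.05 times in STAP-1 KO, a quotient 4.80-fold lower. These are quotients of mRNA levels and say nothing of bound protein.

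**Figure D4:**
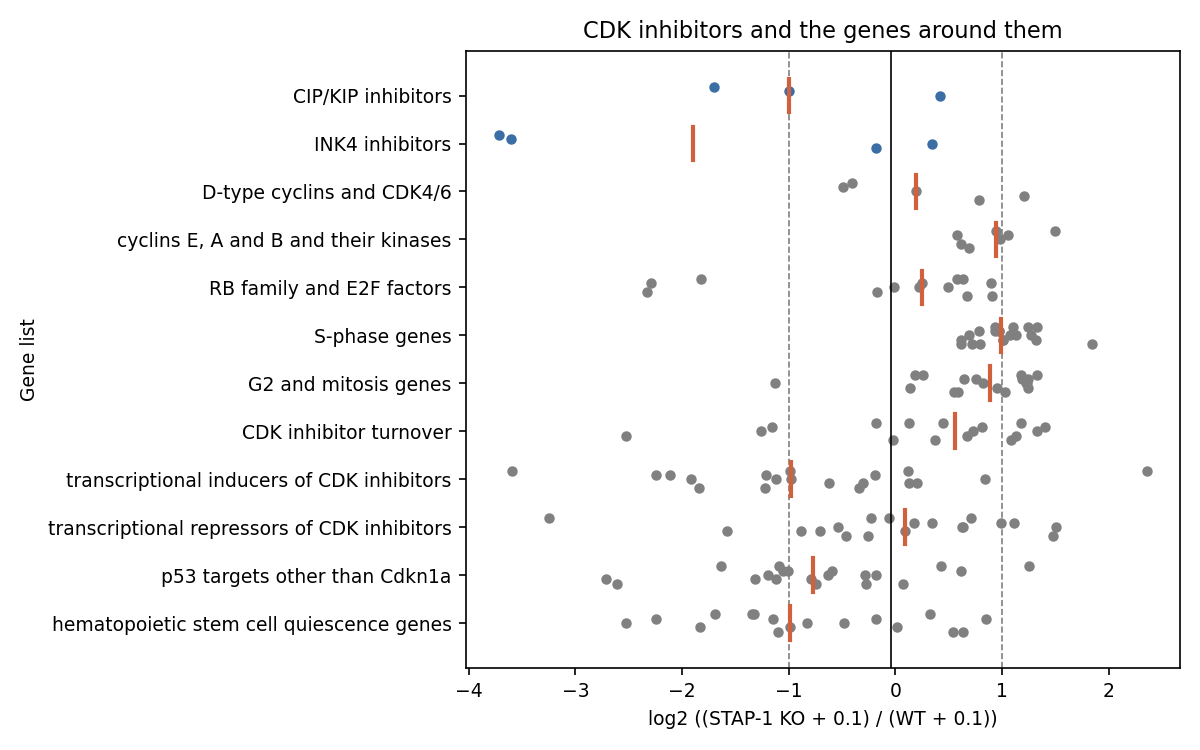
Log2 ratio of STAP-1 KO to WT, with a pseudocount of 0.1 FPKM, for the inhibitors (blue) and for the genes of each related list (grey), each point an expressed gene. Orange bars are list medians, the black line is the median of all such genes (-0.04) and dashed lines mark 2-fold. The S-phase genes and the cyclins E, A and B with their kinases lie to the right of 0, as do the mitosis genes other than Mki67, and the inhibitors are spread from -3.72 to 0.42.

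Log2 ratios were above 0 in all 20 S-phase genes and in 17 of 18 genes of G2 and mitosis, many of them short of 2-fold. Of the 10974 expressed genes, 5302 had log2 ratios above 0. Of 20 S-phase genes, 10 were at least 2-fold higher and 0 at least 2-fold lower (12.3% and 22.9% of all genes), with a median log2 ratio of 0.99. Gins2, a subunit of the replicative helicase, was at 23.6 and 84.9 FPKM. Of 18 genes of G2 and mitosis, 8 were at least 2-fold higher and 1 at least 2-fold lower, against the same shares of all genes, with a median of 0.89. Aurka, a spindle kinase, was at 49.4 and 124 FPKM. The lower gene was the proliferation marker Mki67, at 17.4 and 7.89 FPKM. Its log2 ratio of -1.13 was -0.16 once corrected, which is not past 2-fold, and 0 of the 18 genes were then at least 2-fold lower. The next list held RB proteins, which are targets of CDK4, CDK6 and CDK2, and E2F factors. In it, 3 of 13 were at least 2-fold lower, a share near the 22.9% of all genes, and 0 were higher. The 3 were the pocket protein genes Rb1 (54.2 and 10.7 FPKM) and Rbl2 (31.6 and 8.86 FPKM) and the activator E2f2 (7.83 and 1.52 FPKM), and the list's median was 0.25. Once corrected, the same 3 were lower and 2 were higher, Rbl1 (1.06) and E2f3 (1.13). In the paper, cell cycle status did not differ significantly between WT and STAP-1 KO cells. It was measured by Ki67 staining in LSCs and by BrdU in GFP+ Lin- c-Kit+ cells, which are not measures of mRNA.

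Other genes known from quiescent hematopoietic stem cells were compared with the inhibitors. The gene lists overlap in part. Egr1, Foxo3 and Fbxw7, all at least 2-fold lower, are also counted in lists above. Of 21 genes, 19 could be compared. Among these, 10 were at least 2-fold lower and 0 at least 2-fold higher (22.9% and 12.3% of all genes). The median log2 ratio was -0.99 over 17 genes. Once corrected, 6 were lower and 3 higher, with a median of -0.39. Txnip, which restrains glucose uptake, was at 109 and 33.9 FPKM, Cited2, which maintains stem cells, at 219 and 86.1 FPKM, and Fbxw7, which degrades MYC and cyclin E, at 21.7 and 3.69 FPKM. Procr, a surface marker of stem cells, was at 2.98 and 5.45 FPKM. Among the inhibitors, Cdkn1a, Cdkn2a and Cdkn2b had log2 ratios from -3.72 to -1.70. Cdkn1b, Cdkn1c and Cdkn2c, at 0.739 to 6.81 FPKM, and Cdkn2d, at 55.5 and 48.9 FPKM, had log2 ratios from -1.0 to 0.42.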

How the data were processed

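RNA of GFP+ CD45.2+ LSK cells was amplified with a SMART-Seq v4 kit, made into Nextera XT libraries and read as 75-base single ends. Per the labels and methods, the authors mapped reads to mm10 with TopHat 2.0.13 and Bowtie2 2.2.3 and deposited FPKM values made with Cuffnorm (Cufflinks 2.2.1); the processing notes name SAMtools 0.1.19 and the methods another version. The gene annotation and the scaling of libraries are not given in the sources used here.

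Values were compared in Python 3.11.15 (scipy 1.17.1, pandas 2.3.3). The cut-off was a ratio of at least 2 with 0.1 FPKM or more in both libraries. Log2 ratios used a pseudocount of 0.1 FPKM, which understates the change of low genes, and list medians the expressed genes, which average 1 FPKM or more. With 1 library per genotype no test was run. Depth was unknown and was estimated from single-transcript genes below 0.3 FPKM. With 208 bases taken off each transcript, values were whole to 0.01 reads in 45.8% of 284 cases (WT) and 47.4% of 348 cases (STAP-1 KO), where chance gives 2%. The reads of the other genes are therefore estimates, taken for the shortest and longest RefSeq-linked transcript in GENCODE M21 (GRCm38). Intervals are 95% Poisson (levels) and Clopper-Pearson (ratios), from the shortest transcript. The correction subtracted the medians of 20 bins of transcript length, then of 20 bins of GC content. Of the symbols, 20911 matched GENCODE as written, 1888 by an older symbol and 485 not. The depth, interval and correction steps were run on simulated reads drawn from the model assumed here. Such a run checks the calculation and not whether the model holds for these libraries.

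The members and gene lists were chosen with earlier results of these data known. All inhibitors, D-type cyclins, cyclins E, A and B and their kinases are named, and of other lists up to 4 genes that differed most with 1 FPKM added to each value, further genes whose role for an inhibitor is described, Stap1, Kit, Ly6a, Mki67 and neighbours of the loci. Bax, Procr, Ddb1, Rbl1, E2f3, Ebf1, Pax5, Tssc4 and the motifs were added after values were seen. Alternatives changed the pseudocount, floor, cut-off, scaling and length and GC correction.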

Additional observations from a re-analysis of the deposited data

How the results depend on the processing

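The 3 other scalings shifted the median of all genes by -0.07 to 0.04, and each inhibitor kept its direction under every alternative run. The log2 ratios ranged from -1.84 to -1.66 for Cdkn1a, from -1.38 to -0.57 for Cdkn1b, from -4.10 to -2.17 for Cdkn2a and from -3.79 to -3.37 for Cdkn2b, and the weakest values of Cdkn1b and Cdkn2a came from the pseudocount of 1 FPKM, which understates low genes. The INK4 sum ranged from -1.13 to -0.96 and so lay on either side of 2-fold, and the CIP/KIP sum from -1.81 to -1.64. The count of 4 lower inhibitors was 2 with a floor of 1 FPKM, where Cdkn1b and Cdkn2a could no longer be counted, and 2 with a 4-fold cut-off, which left Cdkn2a and Cdkn2b. With length and GC corrected, Cdkn2d was at -0.36, beyond its counting interval, the inducers of CDK inhibitors had a median of -0.28 and the quiescence genes of -0.39; the cause was not tested. Corrected counts, an alternative chosen after seeing the data, moved by over 1.5 times for the genes at least 2-fold higher among D-type cyclins and their kinases (from 1 to 2), cyclins E, A and B and their kinases (2 to 1), RB and E2F genes (0 to 2), turnover genes (5 to 1), p53 targets (1 to 2) and quiescence genes (0 to 3), and for the genes at least 2-fold lower among mitosis genes (1 to 0), turnover genes (3 to 1), inducers (10 to 6) and quiescence genes (10 to 6). Of the values recomputed, 131 kept their direction and moved by less than counting error (genes and sums) or 1.5-fold (counts and medians), and the 15 above moved by more. Depth limits Cdkn1b, Cdkn1c and Cdkn2a, which rest on at most 25.9 reads in each library. Leaving out a replicate was not possible with 1 library per genotype. No paired analysis was possible because each genotype has 1 library.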

Other observations

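Genes whose names resemble those of the inhibitors but that belong to neither family all had higher values in the STAP-1 KO library. Of these only Cdkn3 was past 2-fold. Cdkn3, a phosphatase that acts on CDKs, was at 15.1 FPKM in WT and 34.5 FPKM in STAP-1 KO, at least 2-fold higher as deposited but not once corrected for length and GC (log2 ratio 0.59, from 1.19). Cdkn2aip, named for the binding of its product to ARF, was at 13.3 and 21.2 FPKM, and its relative Cdkn2aipnl at 86.7 and 134 FPKM.

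Among 20 imprinted growth genes and genes of the Cdkn1c domain, 12 could be compared. Of these, 5 were at least 2-fold lower and 3 at least 2-fold higher (22.9% and 12.3% of all genes). Grb10, an adapter that dampens growth factor signaling, was at 24.2 and 1.41 FPKM, Igf2r, the receptor that clears IGF2, at 3.84 and 0.197 FPKM, and Osbpl5, a lipid transfer gene near Cdkn1c, at 28.0 and 5.11 FPKM. Plagl1, a zinc-finger gene, was at 4.41 and 0.0567 FPKM, the latter below the floor. Of the higher genes, Tssc4, which also lies in the Cdkn1c domain, was at 32.4 and 66.1 FPKM, which was short of 2-fold once corrected (log2 ratio 0.80). The list thus went both ways, and Cdkn1c, at 0.944 and 1.30 FPKM, was past 2-fold in neither direction.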
